A study of Bos indicus with 55 samples.

Results

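The microRNAs (miRNAs) bta-miR-10a, bta-miR-10b, bta-miR-196a and bta-miR-196b are encoded inside the HOX gene clusters, and all 4 were followed here in vesicles released by cattle conceptuses. The prefix for cattle is left out below. They were taken by name from a table of 1024 bovine miRNA entries, of which 655 had at least 1 count, so the measurements below concern 4 of 1024 entries. A conceptus is the embryo together with its developing membranes, and extracellular vesicles (EVs) are small membrane-bound particles that cells release. The 28 EV libraries each came from a different animal on day 16 of pregnancy, from a conceptus held in culture for 6 h. In vivo conceptuses, conceived after artificial insemination, gave 3 female and 3 male libraries. In vitro fertilised (IVF) conceptuses gave 7 female and 3 male libraries. Nuclear transfer conceptuses, in which the nucleus of a donor cell replaces that of the egg, gave 5 female and 7 male libraries. All groups shared the age, the culture and the small RNA library protocol, and the source of the donor nuclei is not named in the labels.

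HOX genes encode transcription factors that set position along the body axis, and their clusters also carry microRNA genes. The gene for miR-10a lies in the HOXB cluster near HOXB4 and that for miR-10b in the HOXD cluster near HOXD4, whereas miR-196a comes from the HOXB and HOXC clusters and miR-196b from the HOXA cluster. These miRNAs repress HOX mRNAs among other targets, and those of miR-196 include HOXB8. The mature miR-10a and miR-10b share their seed and are close in sequence, as are miR-196a and miR-196b, so that a read with an error could be counted for the wrong member of a pair, and the split within each pair is uncertain to that extent.

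Library totals ran from 39263 to 603579 counts with a median of 120728. The entries miR-2887, miR-2904 and miR-2892, which are known to resemble fragments of ribosomal RNA, took from 4.11% to 76.5% of a library's counts and are called rRNA-like below. Of the marker lists checked, all 6 early embryo, 5 epithelial, 3 erythroid, 5 leukocyte and 4 muscle entries had a count in the table, as did 3 of 4 neural entries and miR-122 of liver. Levels are given as CPM, a miRNA's count divided by the library's total and expressed on a common scale, each total being adjusted by the trimmed mean of M values (TMM). In a bulk vesicle preparation, fewer vesicles carrying a miRNA and less of it in each vesicle cannot be told apart. Of the 4 members, miR-10a, miR-10b and miR-196b passed the filter on low counts and were among the 240 entries tested, and miR-196a did not pass. The entry miR-196b passed only through in vivo female 1, in vivo male 1 and IVF male 3, with 15, 7 and 8 counts. No nuclear transfer library met the limit, so the contrasts of miR-196b between types are given as descriptions.

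The members differed widely in abundance. Over the 28 libraries miR-10a had a lowest level of 423 CPM, a median of 5873 and a highest of 58270, a 138-fold range. Its counts ran from 43 to 21112, and its place among all entries of a library ran from the 5th to the 92nd. For miR-10b the lowest, median and highest levels were 464, 1887 and 12112 CPM, a 26.1-fold range, with between 97 and 803 counts. Together the miR-10 pair made up 0.133% to 5.31% of a library's counts, with a median of 1.48%. Both miR-196 entries were rare: miR-196a had 79 counts in all, spread over 17 of 28 libraries, and miR-196b had 49 counts in 12 of 28. The miR-10 pair was thus measured in every library, and the miR-196 pair was measured at the edge of detection.

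The level of miR-10a did not separate the conceptus types. In the 6 in vivo libraries the lowest, median and highest levels were 3491, 7885 and 58270 CPM. In the 10 IVF libraries they were 686, 2097 and 21203 CPM. In the 12 nuclear transfer libraries they were 423, 6515 and 34375 CPM. The ranges overlapped for every pair of types, although 6 of 10 IVF libraries lay below every in vivo library. Within IVF the values fell apart: females 1, 2 and 7 and male 3 had 12974, 13479, 21203 and 15852 CPM, whereas the other 6 libraries lay between 686 and 2104 CPM. The rRNA-like share was 8.80% to 24.0% in those 4 libraries and 48.4% to 76.5% in the other 6. The highest value of the series, 58270 CPM, belonged to in vivo male 3, where miR-10a took 5.27% of all counts (exact 95% binomial interval 5.20% to 5.34%, counting error only). The lowest belonged to nuclear transfer male 1, where its 43 counts made up 0.0296% (exact interval 0.0214% to 0.0399%).

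**Figure D1:**
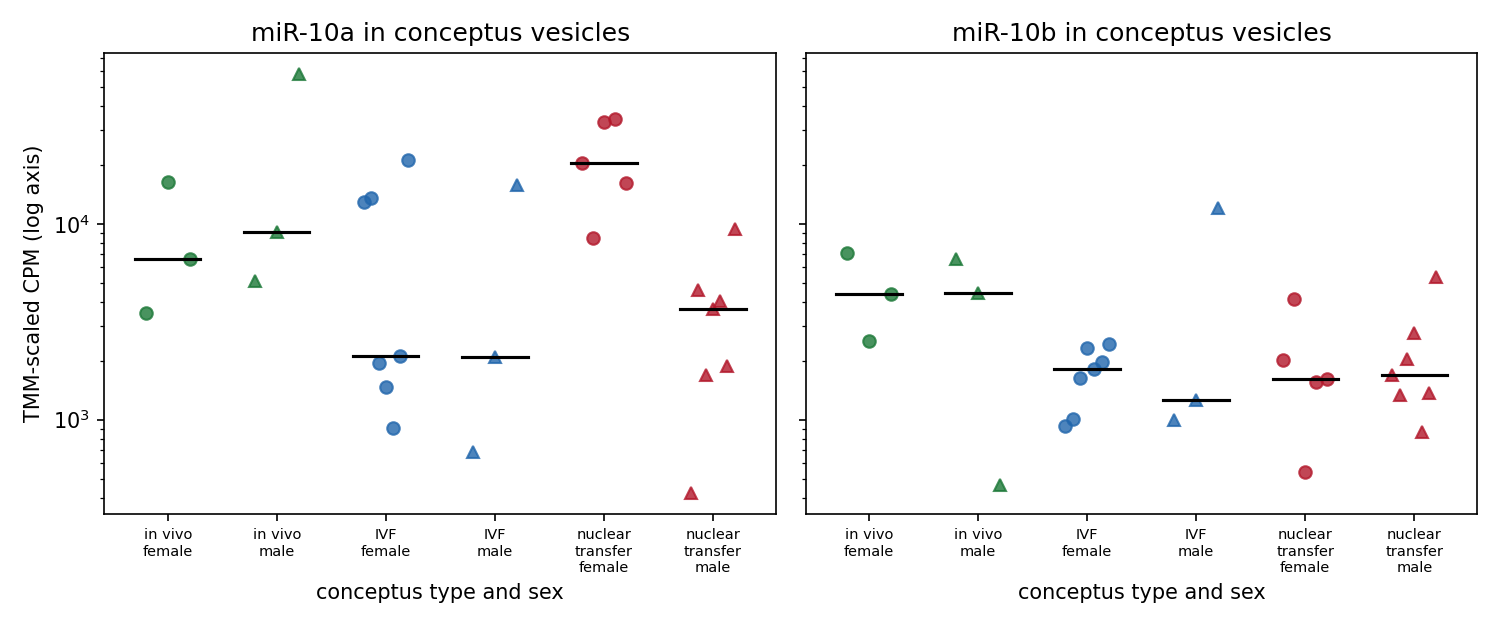
TMM-scaled CPM (log axis) of miR-10a on the left and miR-10b on the right in each of the 28 libraries, by conceptus type and sex, with a bar at each group's median. For miR-10a, 6 of the 7 nuclear transfer males lie below all 5 nuclear transfer females, while the miR-10b values of these groups overlap.

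For miR-10b the in vivo libraries were mostly the higher ones. Their lowest, median and highest levels were 464, 4409 and 7106 CPM, against 934, 1718 and 12112 CPM in IVF and 542, 1648 and 5343 CPM in nuclear transfer. Of the nuclear transfer libraries 11 of 12 lay below the in vivo median, and of the IVF libraries 9 of 10 did. The libraries above it were nuclear transfer male 7 at 5343 CPM and IVF male 3 at 12112 CPM, the highest of all 28. The lowest of all 28 was in vivo male 3 at 464 CPM, and in vivo female 2 at 2512 CPM also lay below several nuclear transfer libraries. The types therefore overlapped. Library totals also differed, with a median of 74370 counts in vivo, 136808 in IVF and 120883 in nuclear transfer. Over the 28 libraries log2 CPM of miR-10b fell as the log10 total rose (r = -0.82). In vivo male 3, the lowest, had 400928 counts, and IVF male 3, the highest, had 41396. No fit took the total as a covariate, so its part in the miR-10b levels of the types was not tested.

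None of the 3 tested members was called between types by edgeR's quasi-likelihood test with Benjamini-Hochberg adjustment over all 240 entries, at a threshold of 0.05. Over all entries that test called 0% between IVF and in vivo, 0.417% between nuclear transfer and in vivo and 1.25% between nuclear transfer and IVF. On the log2 scale miR-10a differed by -1.08 (SE 0.74, edgeR adjusted p = 0.484) for IVF minus in vivo and by -0.68 (SE 0.68, edgeR adjusted p = 0.657) for nuclear transfer minus in vivo. With the rRNA-like share as a covariate these became -0.0060 and 0.48. Without the 3 libraries under 50000 counts the IVF difference was -2.41 and with limma voom -1.88, and leaving out 1 library gave -2.17 (without IVF male 3) to -0.19 (without in vivo male 3). The nuclear transfer difference turned to 0.10 without in vivo male 3. For miR-10b the log2 difference was -0.55 (SE 0.56, edgeR adjusted p = 0.657) for IVF and -1.02 (SE 0.51, edgeR adjusted p = 0.392) for nuclear transfer, each minus in vivo. The IVF value was -1.67 without IVF male 3, -1.56 without the shallow libraries and -1.33 with limma voom. Between nuclear transfer and IVF the log2 differences were 0.39 (SE 0.64, edgeR adjusted p = 0.891) for miR-10a and -0.47 (SE 0.47, edgeR adjusted p = 0.747) for miR-10b, and these became 1.44 and 0.54 without IVF male 3. The contrasts of IVF and nuclear transfer against in vivo share the in vivo libraries.

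All 3 fitted members were below 0 in both contrasts against in vivo. Of these, miR-196b passed the filter only through in vivo and IVF libraries, so its direction is no separate evidence. Below 0 stood 48.3% of all entries for IVF and 44.6% for nuclear transfer. The log2 differences of miR-10a and miR-10b were -1.08 and -0.55 for IVF and -0.68 and -1.02 for nuclear transfer. Over all entries tested the medians were 0.01 and 0.15. At an unadjusted p under 0.05 edgeR called 39 entries (16.2%) for IVF and 27 entries (11.2%) for nuclear transfer. Among them were 0 and 1 of the members. The latter was miR-196b, whose contrasts between types are descriptions. Between nuclear transfer and IVF miR-10b and miR-196b were below 0 and miR-10a was above it, while 46.2% of all entries were below 0. Of the 3 members 0 passed the unadjusted threshold, beside 10% of all entries. DESeq2 and limma voom also called 0 members in each of the 3 contrasts. Over all entries DESeq2, which sets its own filter, called 3.52% and limma voom 9.17% for IVF minus in vivo, and both called 0% in the other contrasts between types.

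**Figure D2:**
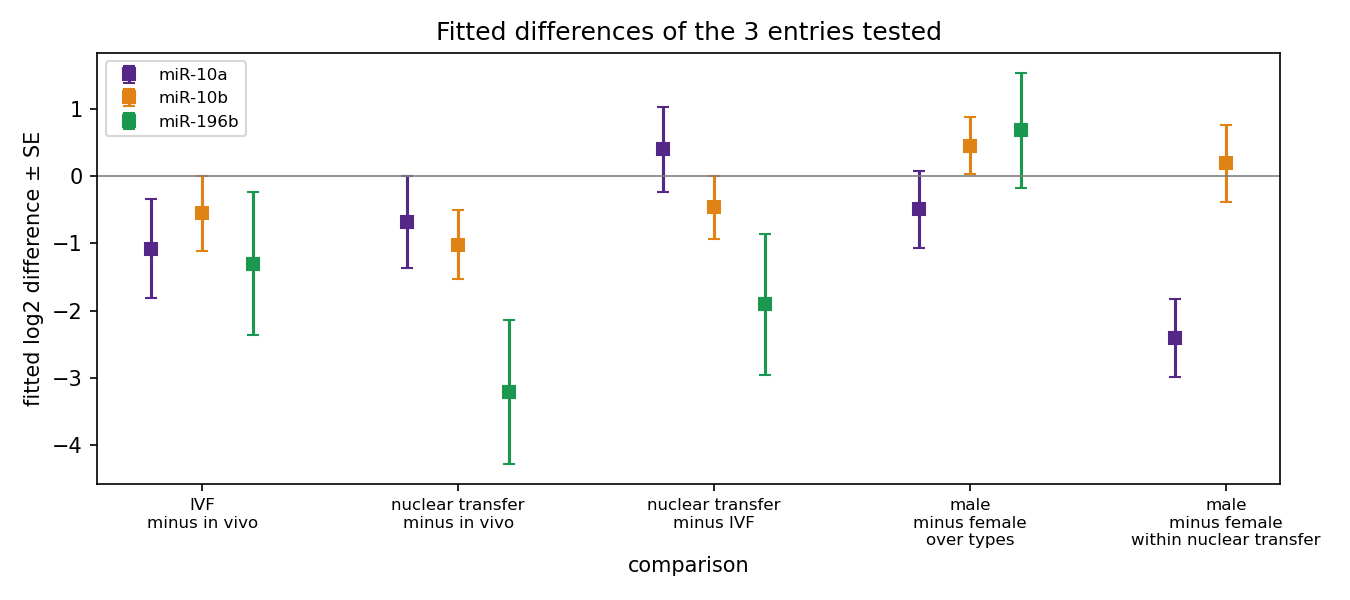
Fitted log2 differences of miR-10a, miR-10b and miR-196b with their standard errors, 1 column per comparison; miR-196b was not tested within nuclear transfer. The miR-10a value of -2.40 between the sexes within nuclear transfer is the only one past the adjusted threshold.

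Within nuclear transfer, male EVs carried less miR-10a than female EVs. The donor nucleus sets the sex of such a conceptus, so sex and donor source cannot be told apart here. Females 1 to 5 had 20437, 8441, 33226, 34375 and 16077 CPM, a mean of 22511 ± 11172 CPM (SD, n = 5). The 7 males had a lowest, median and highest level of 423, 3660 and 9405 CPM, a mean of 3675 ± 2929 CPM (SD, n = 7). Only male 7 at 9405 CPM rose above the lowest female, and the other 6 males lay below all 5 females. The log2 difference, male minus female, was -2.40 (SE 0.58, edgeR adjusted p = 0.0128 over the 180 entries tested in these 12 libraries). That fit called 40 entries, or 22.2% of those tested, with 16 lower in males (8.89%) and 24 higher (13.3%). It tested 2 of the members, of which miR-10a was below 0, and called miR-10a alone. Of all 180 entries 48.9% were below 0, and 36.7% had an unadjusted p under 0.05. DESeq2 gave a log2 difference of -2.38 (adjusted p = 0.00205) and limma voom -2.75 (adjusted p = 0.00194), and over all entries they called 20.7% and 26.1%.

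The same males did not differ detectably in miR-10b. Females 1 to 5 had 2011, 4152, 542, 1558 and 1613 CPM, and the males had a lowest, median and highest level of 867, 1683 and 5343 CPM. These ranges overlapped almost wholly. The means were 1975 ± 1332 CPM (SD, n = 5) in females and 2201 ± 1512 CPM (SD, n = 7) in males, with a log2 difference of 0.19 (SE 0.57, edgeR adjusted p = 0.856).

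Several other measures moved with sex within nuclear transfer. The rRNA-like share was 24.7% ± 16.2 (SD, n = 5; 5.18% to 44.6%) in females and 46.8% ± 10.3 (SD, n = 7; 30.3% to 59.7%) in males. With that share as a covariate the miR-10a difference was -1.56 (edgeR adjusted p = 0.230), and the entries called fell from 40 to 1; with the 3 rRNA-like entries left out of the table it was -2.43 (edgeR adjusted p = 0.0102). The 6 early embryo markers, among them the miR-302 family, summed to 140.6 to 1088 CPM in females and 423 to 7784 CPM in males. The 5 epithelial markers of the miR-200 family summed to 16363 to 103114 CPM in females and 6840 to 32312 CPM in males. Early embryo sums were thus higher and epithelial sums lower in the male libraries, with overlap, and their part in the miR-10a difference was not tested. Totals ran from 69424 to 603579 counts in females and from 103715 to 185269 in males. The miR-10a call held in 12 of 12 fits that each left out 1 library, with log2 differences from -2.87 to -2.13 and edgeR adjusted p from 0.00258 to 0.0425.

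In the other types no such separation of the sexes was seen. In vivo females 1 to 3 had 3491, 16383 and 6636 CPM of miR-10a, and in vivo males 1 to 3 had 5110, 9134 and 58270 CPM. IVF females had a lowest, median and highest of 908, 2104 and 21203 CPM, and IVF males 1 to 3 had 686, 2090 and 15852 CPM. Averaged over the 3 types, the log2 difference between the sexes was -0.49 (SE 0.57, edgeR adjusted p = 0.803) for miR-10a and 0.45 (SE 0.42, edgeR adjusted p = 0.787) for miR-10b. Of the 3 members miR-10a alone was below 0, beside 55.4% of all entries. Over all 240 entries 0% were called, while 9 (3.75%), none of them a member, had an unadjusted edgeR p under 0.05, and DESeq2 and limma voom called 0. Whether the effect of type depended on sex was tested as an interaction, which for miR-10a gave an edgeR adjusted p of 0.323 and an unadjusted p of 0.0228. At that unadjusted threshold 14.6% of all entries passed, and 0% passed after adjustment by edgeR, with DESeq2 and limma voom also calling 0. The sex difference in miR-10a is therefore not shown to differ between types.

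The balance of the pair is free of library scaling, because both counts come from 1 library. Scaling apart, miR-10a followed the rRNA-like share over the libraries (r = -0.87), whereas miR-10b had r = -0.02 with it. The part of that share in the ratio was not tested. The log2 ratio of miR-10b to miR-10a ran from -6.97 in in vivo male 3 to 1.98 in nuclear transfer male 1, with a median of -0.77. In counts, that is from 126 miR-10a reads per miR-10b read down to 0.251. The mean log2 ratio was -1.65 ± 2.90 (SD, n = 6) in vivo, -0.99 ± 1.85 (SD, n = 10) in IVF and -1.79 ± 2.19 (SD, n = 12) in nuclear transfer. No pair of types differed beyond this spread. The differences were 0.66 (SE 1.32, exact permutation p = 0.585, adjusted 0.781) for IVF minus in vivo and -0.14 (SE 1.34, exact permutation p = 0.926, adjusted 0.926) for nuclear transfer minus in vivo. For nuclear transfer minus IVF the difference was -0.80 (SE 0.86, permutation p = 0.368, adjusted 0.735), and for male minus female over all libraries 1.08 (SE 0.82, permutation p = 0.196, adjusted 0.735). The tests were two-sided and adjusted over these 4 comparisons.

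**Figure D3:**
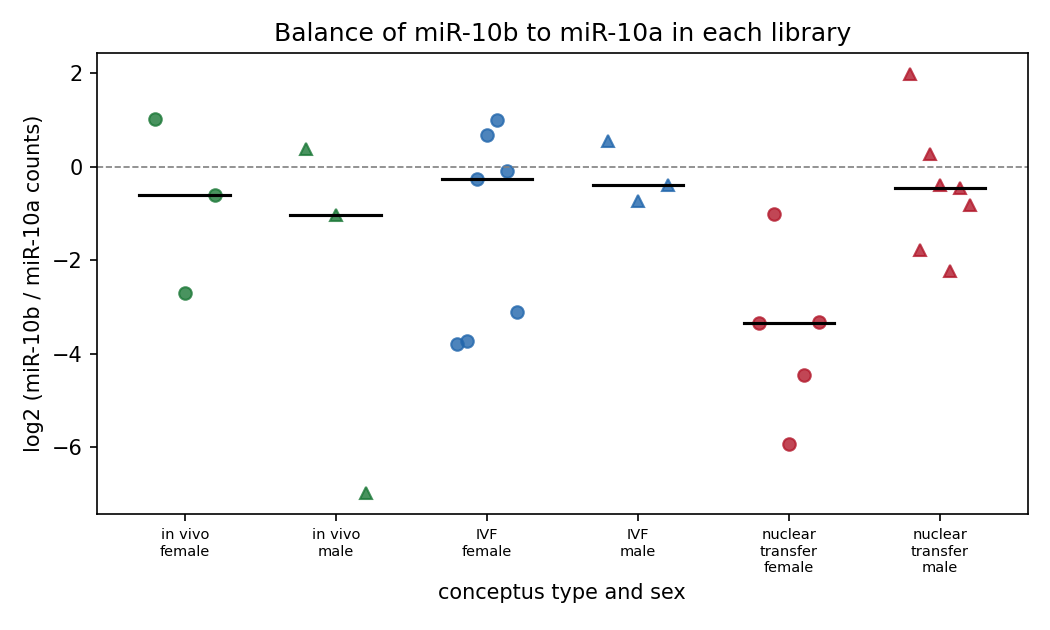
Log2 ratio of miR-10b to miR-10a counts in each of the 28 libraries by conceptus type and sex, with a bar at each group's median and a dashed line where the counts are equal. The 5 nuclear transfer females lie between -5.94 and -1.02 and the 7 males between -2.22 and 1.98.

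The sexes were also compared within each type, a comparison chosen after the values were seen, so its p values are given as descriptions. In nuclear transfer the log2 ratios of females 1 to 5 were -3.34, -1.02, -5.94, -4.46 and -3.31, and those of the males ran from -2.22 to 1.98 with a median of -0.46. Apart from female 2, every female lay below every male. The means differed by 3.12 (SE 0.96, exact permutation p = 0.00758, two-sided, adjusted over the 3 types to 0.0227). Leaving out 1 library gave 2.54 to 3.77, and the adjusted exact permutation p rose to 0.0545 without female 1, 3, 4 or 5. The miR-10b difference between these sexes was 0.19, so the ratio difference rests mainly on miR-10a in the same libraries. It is no separate evidence. As for miR-10a, sex and donor source cannot be told apart in nuclear transfer. The rRNA-like share was also higher on average in these males, and its part in the ratio was not tested. The male minus female differences were 1.14 (SE 0.89, exact permutation p = 0.517) in IVF and -1.78 (SE 2.49, exact permutation p = 0.6) in vivo, where 3 against 3 libraries cannot give less than 0.1.

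No relation between the members of the pair was detected over all libraries. Between miR-10a and miR-10b the log2 CPM values had Pearson's r = -0.06 and Spearman's rho = -0.04 (n = 28, permutation p = 0.778 and 0.822, adjusted 0.925 and 0.959), and r = 0.07 without the 2 libraries farthest from the median of miR-10a. Within types r was -0.98 in vivo, 0.31 in IVF and -0.11 in nuclear transfer. In all, 14 such relations were computed over the libraries and adjusted together, separately for r and rho.

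The 2 members of the miR-10 pair were related to different properties of the library. For miR-10a this was the rRNA-like share: r = -0.87 and rho = -0.87 (n = 28, permutation p = 1e-05 each, the smallest that 100000 resamples can give, adjusted 7e-05), with r = -0.86 without the 2 farthest libraries. The relation held within each type, at r = -0.89 in vivo, -0.92 in IVF and -0.85 in nuclear transfer. For miR-10b it was the library's total: r = -0.82 and rho = -0.71 against log10 total counts (n = 28, permutation p = 1e-05 each, adjusted 7e-05), with r = -0.75 without the 2 farthest. Within types r was -0.87 in vivo, -0.78 in IVF and -0.76 in nuclear transfer. The in vivo value rests largely on in vivo male 3, with 400928 counts and a log2 CPM of 8.90. The other in vivo libraries had 39263 to 100693 counts, so the relation is not shown among them. CPM divides by the total, and the counts of miR-10b spanned only 8.28-fold between libraries. The rRNA-like share comes from the same counts as well, and the permutation p values do not allow for such shared parts. These r values were not set beside those of the other tested entries. Neither relation is therefore shown to be particular to its member. The crossed relations were near 0, at r = -0.02 (rho = 0.00) for miR-10b with the rRNA-like share and r = 0.03 (rho = -0.17) for miR-10a with the total, adjusted permutation p = 0.925 for both r, and 0.995 and 0.607 for the rho values. Within the 6 in vivo libraries, however, miR-10b was higher where the rRNA-like share was higher, at r = 0.90, so that the pooled value does not describe that type. For miR-196a and miR-196b r was -0.14 and -0.22 with the rRNA-like share and 0.17 and -0.41 with the total. Their adjusted permutation p was 0.109 or more, and within types these r values ran from -0.77 to 0.90.

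**Figure D4:**
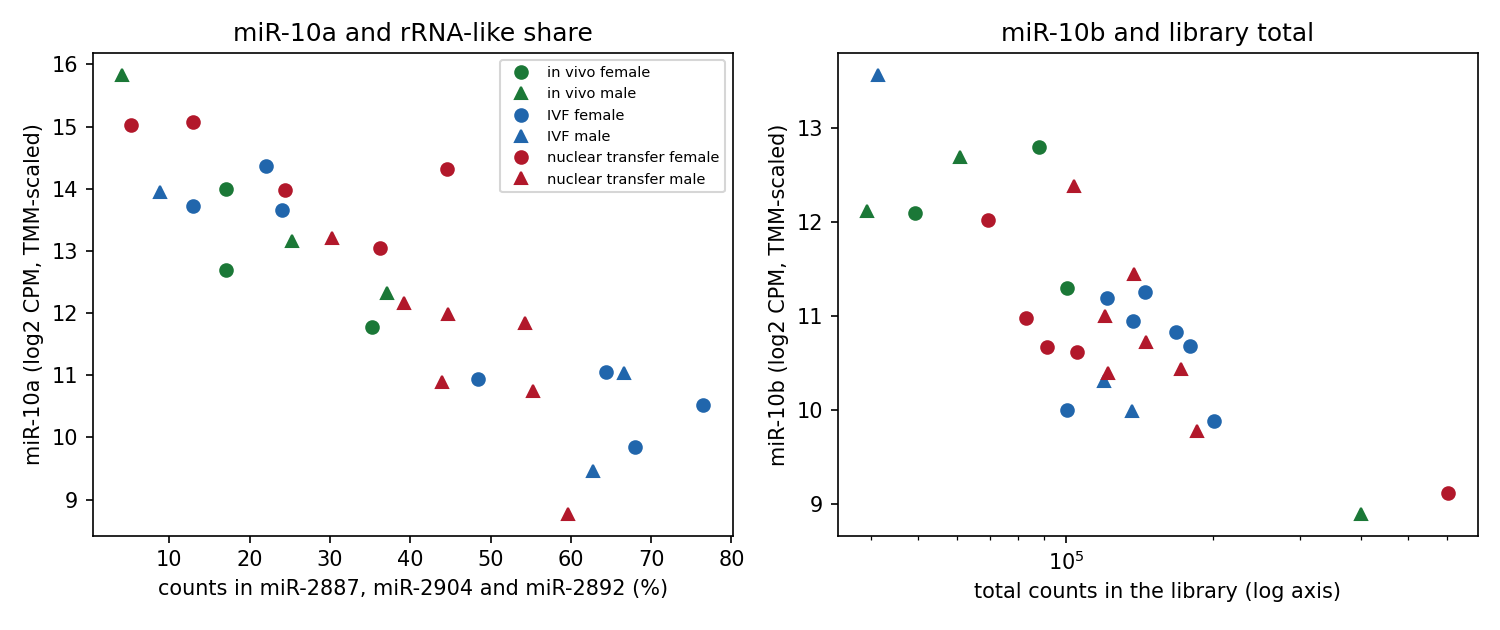
Left, log2 CPM of miR-10a against the percent of counts in miR-2887, miR-2904 and miR-2892; right, log2 CPM of miR-10b against total counts (log axis). Points are the 28 libraries, coloured by type and shaped by sex, and r is -0.87 on the left and -0.82 on the right.

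The entries most like each member in level over the 28 libraries also differed. For miR-10a they were let-7a-5p (r = 0.95), the near-identical entries miR-129-5p and miR-129 (r = 0.93 each), let-7b, whose counts equal those of miR-3596 (r = 0.93), and miR-30f (r = 0.92), beside a median r of -0.07 over the 237 other tested entries. The let-7 miRNAs accumulate as cells differentiate. For miR-10b they were miR-126-3p (r = 0.67), a miRNA of endothelial cells, miR-143 (r = 0.66), found in smooth muscle and mesenchyme, miR-99a-5p (r = 0.61), miR-184 (r = 0.61) and miR-409b (r = 0.60), beside a median r of -0.08. For miR-196b the 5 closest entries, led by miR-374c, had r between 0.41 and 0.50, which in counts this sparse is weak. These correlations share each library's total and scaling and are given as descriptions. In the nuclear transfer fit all 5 entries named for miR-10a were lower in males, from -2.42 for miR-30f to -1.84 for let-7a-5p (SE 0.50, edgeR adjusted p = 0.0201). They were picked for their likeness to miR-10a in libraries that include these 12, so their direction there is no separate evidence. Of the 5 named for miR-10b, miR-184 alone was called, in a fit that called 22.2% of all entries. It was lower in males by a log2 difference of -3.83 (SE 1.196, edgeR adjusted p = 0.0311), and the other 4 ranged from -0.74 for miR-99a-5p to 1.44 for miR-409b. The entries closest to miR-10b thus did not share 1 direction between the sexes.

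The miR-99, miR-100 and miR-125 miRNAs are relatives or cluster neighbours of the miR-10 and let-7 families, and miR-615 is another miRNA of a HOX cluster. Of this list miR-99a-5p, miR-99b, miR-100, miR-125a and miR-125b were tested, and miR-615 had 2 counts in all. The edgeR test called 0 of 5 between types (0% to 1.25% of all entries), between the sexes over types and in the interaction (0% of all entries in both), and 1 of 5 between the sexes within nuclear transfer, where 22.2% of all entries were called. There miR-99b was lower in males, with a range of 167 to 1005 CPM against 1121 to 2844 CPM in females. Its log2 difference was -1.76 (SE 0.53, edgeR adjusted p = 0.0271), while miR-125a missed the threshold at -1.76 (SE 0.64, edgeR adjusted p = 0.0571). All 5 were below 0 in each of the 5 contrasts with a direction, from -1.53 to -0.86 for nuclear transfer minus in vivo and from -1.35 to -0.27 for IVF minus in vivo. The ranges were -0.59 to -0.06 for nuclear transfer minus IVF, -0.39 to -0.12 between the sexes over types and -1.76 to -0.45 within nuclear transfer. In those 5 contrasts 44.6% to 55.4% of all entries were below 0. The contrasts share libraries and some entries moved together (r = 0.92 for miR-99b with miR-125a), so the signs are not separate evidence. Over the libraries miR-10a had r = 0.89 with miR-99b, 0.87 with miR-125a and -0.38 with miR-100.

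The rare miR-196a was found in all 3 types. Its pooled level was 2.98 per 100000 counts in vivo (22 counts in 3 of 6 libraries, exact 95% Poisson interval 1.87 to 4.51), 1.33 in IVF (18 counts in 5 of 10, 0.791 to 2.11) and 2.01 in nuclear transfer (39 counts in 9 of 12, 1.43 to 2.75). These intervals cover counting error only and overlapped. A single library could weigh heavily, since in vivo male 3 held 14 of the 22 in vivo counts and IVF female 1 held 10 of the 18 IVF counts. Differences were taken on log2(CPM + 1), where their size at such low levels depends on the value added. They were -0.33 (SE 1.40, exact permutation adjusted p = 0.720) for IVF minus in vivo and 0.89 (SE 1.36, exact permutation adjusted p = 0.654) for nuclear transfer minus in vivo. For nuclear transfer minus IVF the difference was 1.21 (SE 1.02, permutation adjusted p = 0.495) and for male minus female -1.65 (SE 0.89, permutation p = 0.0756, adjusted 0.302). With other added values or scaling, male minus female ran from -2.55 to -0.79 and nuclear transfer minus in vivo from 0.28 to 1.68. The latter lay above 0 although the pooled level of nuclear transfer was below that of in vivo. Pooling weighs each library by its total.

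Within nuclear transfer miR-196a had a count in 5 of 5 female libraries and in 4 of 7 male libraries. Females 1 to 5 had 4, 10, 8, 5 and 1 counts, or 9.11 to 123.6 CPM. The 7 males had 0 to 6 counts, and males 1, 2 and 3 had none, which allows up to 29.5, 23.1 and 42.2 CPM in each (3 counts of the scaled total). The sexes overlapped, and this difference was not tested.

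**Figure D5:**
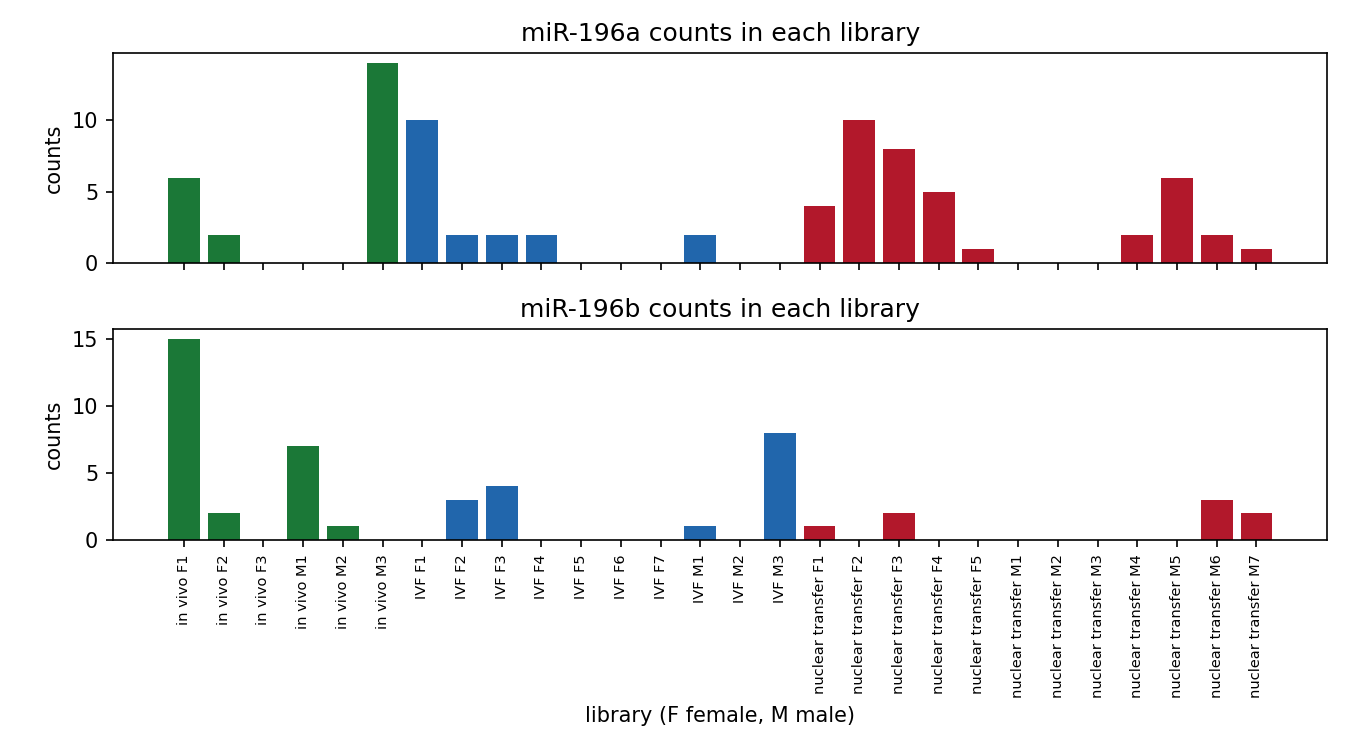
Counts of miR-196a (top) and miR-196b (bottom) in each of the 28 libraries, coloured by conceptus type; F is female and M is male. The highest bars are 14 for miR-196a in in vivo male 3 and 15 for miR-196b in in vivo female 1, and no nuclear transfer library has more than 3 counts of miR-196b.

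For miR-196b the pooled level was 3.38 per 100000 counts in vivo (25 counts in 4 of 6 libraries, exact 95% Poisson interval 2.19 to 5.00), 1.19 in IVF (16 counts in 4 of 10, 0.678 to 1.93) and 0.413 in nuclear transfer (8 counts in 4 of 12, 0.178 to 0.813). In vivo female 1 alone held 15 of the in vivo counts and in vivo male 1 another 7, whereas the highest nuclear transfer library had 3. IVF male 3 held 8 of the IVF counts. The counting intervals of in vivo and nuclear transfer did not overlap, but with libraries as the unit the difference was not called: its log2 value was -3.21 (SE 1.07, edgeR unadjusted p = 0.00583, adjusted p = 0.200), with adjusted p from 0.113 to 0.589 over the alternatives. The value itself was -1.83 with limma voom and -1.86 without in vivo female 1. It was -1.30 (SE 1.06, edgeR adjusted p = 0.546) for IVF minus in vivo and -1.91 (SE 1.05, edgeR adjusted p = 0.458) for nuclear transfer minus IVF, and these ranged from -3.05 to -0.71 and from -2.26 to -0.35 over the alternatives. In IVF and nuclear transfer most libraries had no count of miR-196b, so the fitted values depend on the small prior count that the fit adds. The filter kept miR-196b only through in vivo female 1, in vivo male 1 and IVF male 3, where it was high. Its contrasts between types are therefore descriptions. Between the sexes over types the log2 difference was 0.68 (SE 0.85, edgeR adjusted p = 0.823).

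No relation between the miR-196 entries was detected over the libraries. Both were counted in 9 libraries, miR-196a alone in 8, miR-196b alone in 3 and neither in 8. Their log2 CPM values had r = 0.02 and rho = 0.03 (n = 28, adjusted permutation p = 0.925 and 0.967, r = -0.17 without the 2 farthest libraries). Within types r was 0.30 in vivo, -0.14 in IVF and 0.03 in nuclear transfer. Between miR-196a and miR-10a, which both have a gene in the HOXB cluster, r was 0.30 and rho 0.27 (n = 28, permutation p = 0.12 and 0.17, adjusted 0.336 and 0.457), with r = 0.19 without the 2 farthest libraries. Within types that r was 0.21 in vivo, -0.07 in IVF and 0.54 in nuclear transfer. Between miR-196b and miR-10b r was 0.61 (n = 28, permutation p = 0.00061, adjusted 0.00285) but rho was 0.36 (permutation p = 0.059, adjusted 0.207). That r was 0.49 without the 2 farthest libraries and 0.67, 0.65 and 0.18 within in vivo, IVF and nuclear transfer. In nuclear transfer 8 of 12 libraries had no count of miR-196b and none had more than 3. The value there cannot show whether the relation holds. Both miR-10b and miR-196b were high in IVF male 3, a library of 41396 counts.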

How the data were processed

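Small RNA of conceptus EVs was sequenced after column extraction with DNase and selection of inserts of 18 to 40 bp, per the labels' protocols. The values the authors deposited are raw counts for each miRNA entry, as whole numbers. The submitters' processing notes name ARS-UCD1.2 as genome build, and list cutadapt, STAR, featureCounts, Bowtie and DESeq2. What each tool did, its version and its handling of reads with several matches were not given in the sources used here. Sample labels name Bos indicus, whereas the design text gives Bos taurus taurus for the conceptuses. The endometrium counts were not used here.

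For the tests, edgeR 4.0.16 was run under R 4.3.3 on the counts (TMM, filterByExpr with minimum count 10 and minimum total 15, quasi-likelihood F test, two-sided, Benjamini-Hochberg adjustment, threshold 0.05). The 28 libraries entered 1 fit of 6 group means (type by sex). A type difference is the mean of the female and male differences. The 12 nuclear transfer libraries were fitted alone for sex. Ratios used a pseudocount of 0.5 and miR-196a used log2(CPM + 1), with exact permutation tests, or 100000 resamples where both groups held 10 or more libraries (scipy 1.17.1). Correlations used log2 CPM with a prior count of 2. DESeq2 1.42.0 and limma 3.58.1 (voom with quality weights) were alternatives, beside other scalings, filters, a covariate, depth limits, a replicate block and leaving out each library. The fit was tested on simulated data. No 2 libraries held the same counts.

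Named entries are the 4 members, the 5 tested entries most correlated with each tested member, and related entries past the threshold; the first related entry to miss it is named after its value was seen. The members, lists and tests were chosen with earlier results of these data known. Replicate numbers name different animals and do not pair libraries.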

Additional observations from a re-analysis of the deposited data

Results flagged for a closer look

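IVF male 3 stood apart from the other 9 IVF libraries in 2 of the 25 group comparisons made for single libraries. Its miR-10b level was 13.57 on the log2 CPM scale (12112 CPM) and the nearest IVF library had 11.26, a gap of 0.626 of the group's range where 0.466 is the limit for 10 libraries. Its miR-196b level was 7.08 on the log2 CPM scale (121 CPM, 8 counts) against 5.36 in the nearest library, a gap of 0.530 of the range. For normally distributed values chance gives about 1 such library in 20 groups. Of the IVF libraries 6 of 10 had no count of miR-196b and so shared its lowest value. That rate therefore does not hold for the miR-196b flag. The library had 41396 counts and an rRNA-like share of 8.80%, the lowest share in IVF.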

How the results depend on the processing

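Results of the edgeR fits were recomputed under 10 alternatives, the log2 ratio and miR-196a by type and sex under 3, the ratio between the sexes within types under 2, and all of these without each library; the correlations have their values without 2 libraries and within types. The difference in miR-10a between the sexes within nuclear transfer stayed past the threshold in 9 of 10 alternatives, 1 of which left out no library of that fit; with the rRNA-like share as a covariate it was -1.56 (adjusted p = 0.230). Entries called over all were, for IVF minus in vivo, 0 and then 10 with DESeq2, 22 with limma voom and 6 without a filter (0 to 21 without 1 library, 21 being without IVF male 3). For nuclear transfer minus in vivo they were 1, then 0 with DESeq2, with limma voom and without the 3 libraries under 50000 counts, and 6 with plain library totals, without a filter and with the replicate block (0 to 5 without 1 library). For nuclear transfer minus IVF they were 3, then 5 without a filter and 0 with DESeq2, with limma voom, without the rRNA-like entries, with their share as a covariate and without the shallow libraries (0 to 4 without 1 library). Within nuclear transfer they were 40, then 61 with DESeq2, 63 without a filter, 1 with the covariate and 41 with the replicate block (16 to 50 without 1 library, the 16 being without female 3 or male 3). Between the sexes over types and in the interaction 0 were called by edgeR under its alternatives. Signs turned for values that were not called. With limma voom, miR-10b was 0.16 for nuclear transfer minus IVF and -0.083 for male minus female; without the shallow libraries these were 0.52 and -0.25, and miR-196b was -0.37 for male minus female. With the covariate miR-10a was 0.48 for nuclear transfer minus in vivo. With the replicate block the miR-10 log2 ratio was 0.0093 for nuclear transfer minus in vivo. Without 1 library the ranges were -1.03 to 0.10 for miR-10a in nuclear transfer minus in vivo, -0.72 to 0.54 for miR-10b in nuclear transfer minus IVF, -0.22 to 0.66 and -0.28 to 1.66 for miR-10b and miR-196b between the sexes, -2.68 to 0.11 for miR-196b in IVF minus in vivo, and -0.16 to 0.46 for miR-10b between the sexes within nuclear transfer. For the log2 ratio they were -0.401 to 1.198 for IVF and -1.203 to 0.396 for nuclear transfer, each minus in vivo, and -3.24 to 0.43 between the sexes in vivo. For miR-196a in IVF minus in vivo the range was -0.84 to 0.38. The cause of these turns was not tested. Libraries with the same replicate number deviated together no more than others (mean r 0.02 over 53 pairs), so the block shares only a number. A planned limit of 20 counts over the miR-10 pair left out 0 libraries and was not run. Depth limits miR-196 most: a library without a count allows up to 17.0 to 50.7 CPM of miR-196a and 8.28 to 50.4 CPM of miR-196b.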

Other observations

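Counts of miR-196a were mostly even numbers. Of its 17 counts above 0, 14 were even (82.4%), against 5 of 12 (41.7%) for miR-196b and 44.8% of the 5314 counts between 1 and 20 over all entries. Of the 232 entries with at least 10 such counts, 13 had a share of even counts at or above that of miR-196a. The pattern was noticed after the values were seen, and how reads with several matches were counted was not stated with the files. Poisson intervals given for miR-196a take each count as a separate read.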
